A study of Mus musculus with 23 samples.

Results

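The synaptic vesicle release machinery was followed as a module of 32 genes, taken by name from the 55335 genes of the count table. The rule names genes and uses no measured value, but the members were chosen with earlier results of these data known. By role it holds 10 proteins of the vesicle and its transmitter transporter, 3 calcium sensors, 7 SNARE proteins and their cofactors, 8 proteins of the active zone and vesicle priming, and 4 proteins of vesicle endocytosis. All 32 were found, and all 32 passed the filter on low counts in every comparison.

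A presynaptic terminal stores transmitter in vesicles that are docked at the active zone, a protein scaffold built by RIM, ELKS (Erc2), Piccolo (Pclo) and Munc13 (Unc13) proteins that recruits and primes them. Calcium that enters with an action potential binds synaptotagmin, which together with complexin triggers the zippering of vesicle synaptobrevin (Vamp) with syntaxin and SNAP-25 on the plasma membrane, and NSF then takes the spent SNARE complex apart. Dynamin, amphiphysin and synaptojanin retrieve the membrane afterwards. In the hippocampus most terminals are glutamatergic and fast, and several gene families of this machinery have a widely used member and one that is restricted to some neuron types.

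Whole hippocampus was profiled by bulk RNA sequencing in 23 mice. All were female, as the study's methods say. WT mice (C57BL/6J x 129S1) and 3xTg mice, a model of Alzheimer's disease, were taken untreated at 8 months (WT-8M and 3xTg-8M, n = 4 each) or at 10 months after a pump had infused 0.8% DMSO vehicle (WT-D and 3xTg-D, n = 4 each) or 80 µM of an inhibitor of stearoyl-CoA desaturase, the SCD inhibitor (WT-S, n = 3, and 3xTg-S, n = 4), into the lateral ventricle for 28 days. Mice called 3xTg carry, among their engineered alleles, human APPSwe and tauP301L transgenes, both driven by the neuronal Thy1.2 element. Both strains were bought and then bred in-house, with the background strain as WT, and the sources used here name no littermate controls. The engineered alleles and other differences between the strains therefore cannot be told apart, nor can fewer cells of a type and less RNA per cell in bulk tissue. All vehicle and inhibitor mice carried a pump and DMSO, which the 8-month mice did not.

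Between 12.8M and 36.7M reads fell in genes in the 8-month libraries, against 13.0M to 17.6M in those of 10 months, and the smallest count of any member in any library was 272. Replicates of a group correlated at 0.985 to 0.994 across genes. The libraries 3xTg-8M replicate 4 and 3xTg-S replicate 2 stood apart: log2 levels in them fell with transcript length by 0.145 and 0.114 per doubling of length, against a slope of -0.0461 to 0.0727 in the other 21, and 30.9% and 27.5% of their reads were assigned to no gene against at most 26.7% elsewhere. The choroid plexus transcript Ttr stood at 324.7 and 205.5 CPM (reads of a gene scaled to the library's reads in genes) in them, and also at 304.3 CPM in WT-S replicate 2, against at most 80.9 CPM in the remaining 20. WT-8M replicate 1 stood apart in the other direction, with the highest slope of the 23 (0.0727). In it 5 striatum markers summed to 42.3 CPM, against at most 29.0 CPM in any other library, and 8 oligodendrocyte markers to 3197 CPM, the lowest of all. Values without these libraries are given where they touch a result. The pan-neuronal markers were present in every library, with a summed level of 4484 to 4658 CPM in WT-8M and 4098 to 4311 CPM in 3xTg-S.

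The module was abundant and took 1.63% to 1.83% of gene reads in every library. Per kilobase of exon, the highest levels were those of the complexin Cplx2 (314 CPM per kb) and of Snap25 (312 ± 25.3, SD over 23 libraries), followed by the vesicle protein synaptophysin, Syp (237), the fast calcium sensor Syt1 (219.6) and synaptobrevin 2, Vamp2 (206). The lowest were those of the family members Unc13b (2.19 ± 0.259), Sv2c (3.32 ± 0.713), Unc13c (3.85 ± 1.14) and Syt2 (4.03 ± 1.01). Neighbours in this order mostly could not be separated: in only 4 of 31 neighbouring pairs did the ranges over the 23 libraries not overlap. The scaffold genes stood low per kilobase, at 27.1 for Erc2, 26.4 for Rims1, 21.9 for Unc13a and 14.6 for Pclo.

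**Figure D1:**
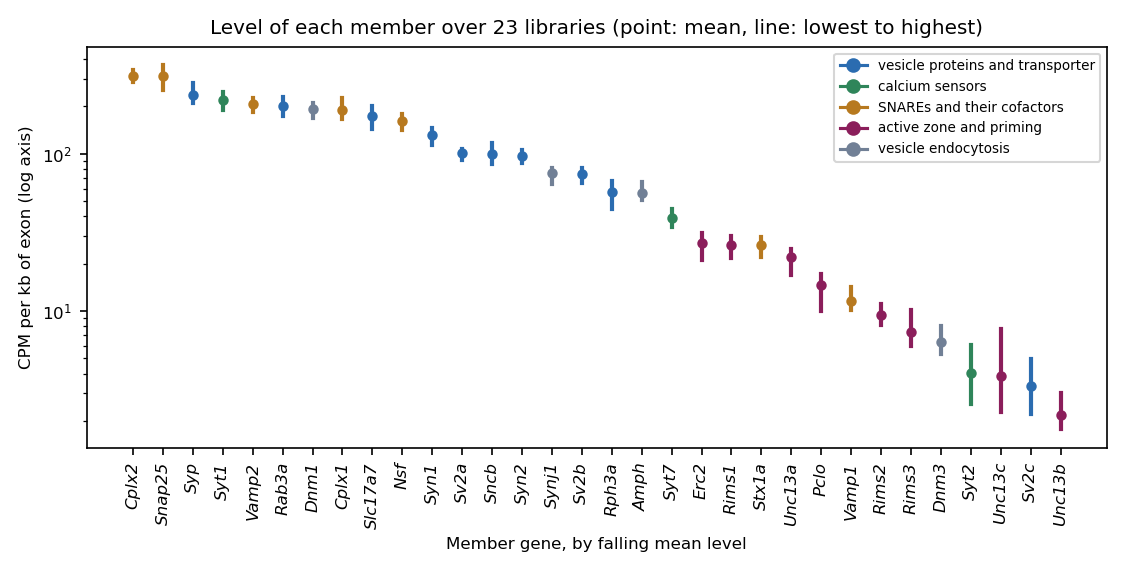
Level of each of the 32 genes in CPM per kb of exon, on a log axis, ordered from the highest to the lowest, with the point at the mean and the line from the lowest to the highest of the 23 libraries, coloured by role. Cplx2 and Snap25 lead at 314 and 312, and Syt2, Unc13c, Sv2c and Unc13b close the order between 4.03 and 2.19.

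Most members were steady, with a coefficient of variation of 4.41% for Sv2a and 4.60% for Syn2 over all 23 libraries. The 3 that varied most were also among the lowest: Unc13c (29.7%), Syt2 (25.1%) and Sv2c (21.5%). Counting error was small beside this spread, since even these genes had 272 or more reads in each library.

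The comparison of 3xTg-8M with WT-8M asked how the machinery stood in untreated mice at an early symptomatic age. Syt2, a synaptotagmin of fast-releasing neurons, fell by 36.2% in 3xTg-8M and was the only member called at an adjusted p under 0.05 (edgeR quasi-likelihood test, Benjamini-Hochberg over 15483 genes). That is 1 of 32, where 2.58% of all genes were called and 1.53% were called lower. Syt2 stood at 40.6, 41.9, 30.8 and 40.7 CPM in the WT-8M mice and at 23.1, 25.6, 24.6 and 25.2 CPM in the 3xTg-8M mice. Every 3xTg-8M mouse lay below every WT-8M mouse, although WT-8M replicate 3 lay well under its group. The log2 fold change was -0.65 (SE 0.094), with an adjusted p = 0.00293, and it was -0.66 with an adjusted p = 0.00912 without 3xTg-8M replicate 4.

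Sv2c, a vesicle glycoprotein of the SV2 family, was the other of 2 members, both lower, at an edgeR p under 0.01 without adjustment. That threshold is the study's own criterion, which it applied to a likelihood ratio test in DESeq2. Of all genes 6.88% passed it by edgeR, and 3.76% passed it and were lower. By DESeq2's likelihood ratio test 3 members passed it (7.45% of all genes). Sv2c stood at 47.7, 41.0, 38.8 and 40.6 CPM in WT-8M and at 28.7, 40.6, 30.3 and 22.5 CPM in 3xTg-8M. The groups overlapped through 3xTg-8M replicate 2, the log2 fold change was -0.47 (SE 0.14) and the adjusted p was 0.12 by edgeR. It was called by DESeq2 (adjusted p = 0.0434) and by edgeR without the filter on low counts (adjusted p = 0.00403). Without 3xTg-8M replicate 2 it was -0.63 with an adjusted p = 0.0196, and without 3xTg-8M replicate 4 it was -0.35 with an adjusted p = 0.156. Without WT-8M replicate 1, the highest of the 8, it was -0.41 with an adjusted p = 0.254.

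Unc13c, a Munc13 priming factor, stood at 68.0, 37.8, 30.4 and 37.5 CPM in WT-8M and at 21.4, 32.2, 38.3 and 30.7 CPM in 3xTg-8M (log2 fold change -0.53 (SE 0.24), edgeR adjusted p = 0.274). WT-8M replicate 1 lay far above the rest, and the other 3 WT-8M mice lay among the 3xTg-8M mice. Without that library the difference was -0.23 (SE 0.16), with an edgeR adjusted p = 0.597. Unc13c was called at 8 months in the fit without the filter on low counts, which kept all 8 libraries.

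Among the remaining members, Syt1 stood at 1969, 1972, 1791 and 1883 CPM in WT-8M and at 1749, 1691, 1763 and 1645 CPM in 3xTg-8M, which did not overlap (log2 fold change -0.15 (SE 0.057), edgeR adjusted p = 0.207). Sncb, beta-synuclein, went the other way, with 208, 208, 209.7 and 209.6 CPM in WT-8M and 223, 212, 239 and 251 CPM in 3xTg-8M (log2 fold change 0.15 (SE 0.061), edgeR adjusted p = 0.241). Groups did not overlap for 5 members, 4 lower (Sv2b, Syt1, Syt2 and Vamp1) and 1 higher, where 6.03% of all genes were lower and 5.25% higher in this way. Both of these values missed the threshold after adjustment. Without 3xTg-8M replicate 4 the Sncb difference was 0.11 and that of Syt1 -0.13. The Sncb difference was -0.0035 once a trend of fold change with transcript length and GC content was removed.

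By role, the 8 active zone and priming genes all had a negative estimate at 8 months (median log2 fold change -0.14), with none called, whereas the 7 SNAREs and cofactors were split 3 below and 4 above 0 (median 0.014). Over the whole module 21 estimates were below 0, against 48.7% of all genes, with a median of -0.066 against 0.00596 over all genes tested. The module is rich in long transcripts, and its fold changes at 8 months followed length (Spearman's rho -0.709 over 32 genes of the same 8 libraries, -0.222 over all genes). Without 3xTg-8M replicate 4, rho was -0.496 and the module's median was -0.044. With the trend on length and GC removed over all genes, rho was -0.362, the median -0.056 and 25 of 32 estimates were below 0, with medians of -0.051 in the 16 members with the shorter transcripts and -0.063 in the 16 with the longer ones. Before it these were 0.013 and -0.13. Without WT-8M replicate 1 rho was -0.531 and the median -0.054.

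Under vehicle at 10 months no member was called in 3xTg-D against WT-D (edgeR, 1.39% of 15528 genes were called), whereas DESeq2 called Cplx1 and Nsf. With edgeR p values the criterion of the study was met by 3, Cplx1, Sv2c and Unc13c, all lower in 3xTg-D. Of all genes 4.95% met it and 2.47% met it and were lower. By DESeq2's likelihood ratio test, the kind the study used, 7 members met it (5.14% of all genes). Cplx1, a complexin that clamps and then assists fusion, stood at 415, 440.5, 442 and 453 CPM in WT-D and at 383, 383, 367 and 398 CPM in 3xTg-D. The groups did not overlap, with a log2 fold change of -0.20 (SE 0.048) and an edgeR adjusted p = 0.0718. Its paralog Cplx2 differed by -0.023 (SE 0.065).

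Sv2c stood at 40.6, 33.7, 28.7 and 37.4 CPM in WT-D and at 24.3, 29.1, 30.1 and 27.1 CPM in 3xTg-D, a log2 difference of -0.35 (SE 0.1) with an edgeR adjusted p = 0.156. Unc13c stood at 40.6, 40.1, 34.9 and 41.6 CPM in WT-D and at 26.3, 36.9, 33.7 and 23.04 CPM in 3xTg-D, a difference of -0.39 (SE 0.13) with an edgeR adjusted p = 0.201. Both sets of groups overlapped. Without WT-D replicate 3, the lowest WT-D mouse for Sv2c, Sv2c was called (log2 fold change -0.43, edgeR adjusted p = 0.0496).

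Amph, amphiphysin, which binds dynamin at the neck of a retrieved vesicle, was the next by p. It stood at 273, 287, 265 and 262 CPM in WT-D against 250.1, 237, 239.7 and 259 CPM in 3xTg-D, without overlap (-0.15 (SE 0.048), edgeR adjusted p = 0.205). The ATPase Nsf also separated the groups, with 1415, 1406, 1426 and 1463 CPM in WT-D and 1294, 1293, 1291 and 1350.5 CPM in 3xTg-D (-0.13 (SE 0.047), edgeR adjusted p = 0.245). In all, 7 members did not overlap and were lower (Syp, Sv2a, Syt1, Vamp1, Cplx1, Nsf and Amph), where 4.01% of all genes did so, and none did not overlap and was higher. All 7 SNAREs and cofactors were below 0 (median -0.11), as were 9 of the 10 vesicle genes (median -0.098), while the 4 endocytosis genes centred at 0.004. Here 26 of 32 estimates were below 0, against 51% of all genes, and length did not order them (rho 0.162). The shift was not particular to the module: of 10 pan-neuronal markers 9 were below 0 and 1 above. Their median log2 fold change was -0.091, beside -0.088 for the members.

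Under the inhibitor the strain comparison, 3xTg-S against WT-S, again had no member called (edgeR, 1.32% of genes), whereas DESeq2 called Syt2. The unadjusted criterion was met by 3 members, all lower, namely Sv2c (-0.36 (SE 0.095), edgeR adjusted p = 0.124), Syt2 (-0.59 (SE 0.16), 0.142) and Rims2 (-0.23 (SE 0.066), 0.169), where 4.14% of all genes met it and 2.07% met it and were lower. By DESeq2's likelihood ratio test 4 members met it (3.94% of all genes). Of 32 estimates 30 were below 0, against 48.8% of all genes, and 4 members did not overlap and were lower (Syn1, Sv2c, Cplx1 and Rims2), against 5.28%. Sv2c stood at 34.0, 34.5 and 29.0 CPM in WT-S and at 25.7, 21.5, 27.4 and 26.7 CPM in 3xTg-S, with no overlap. Syt2 stood at 26.5, 46.7 and 40.1 CPM in WT-S and at 23.4, 29.3, 21.7 and 26.3 CPM in 3xTg-S, and here WT-S replicate 1 lay inside the 3xTg-S range. Without that mouse the Syt2 difference was -0.79 with an edgeR adjusted p = 0.00379. Without 3xTg-S replicate 2 the estimates were -0.29 for Sv2c, -0.67 for Syt2 and -0.21 for Rims2, and with the length and GC trend removed Sv2c was called (-0.33, edgeR adjusted p = 0.0391).

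**Figure D2:**
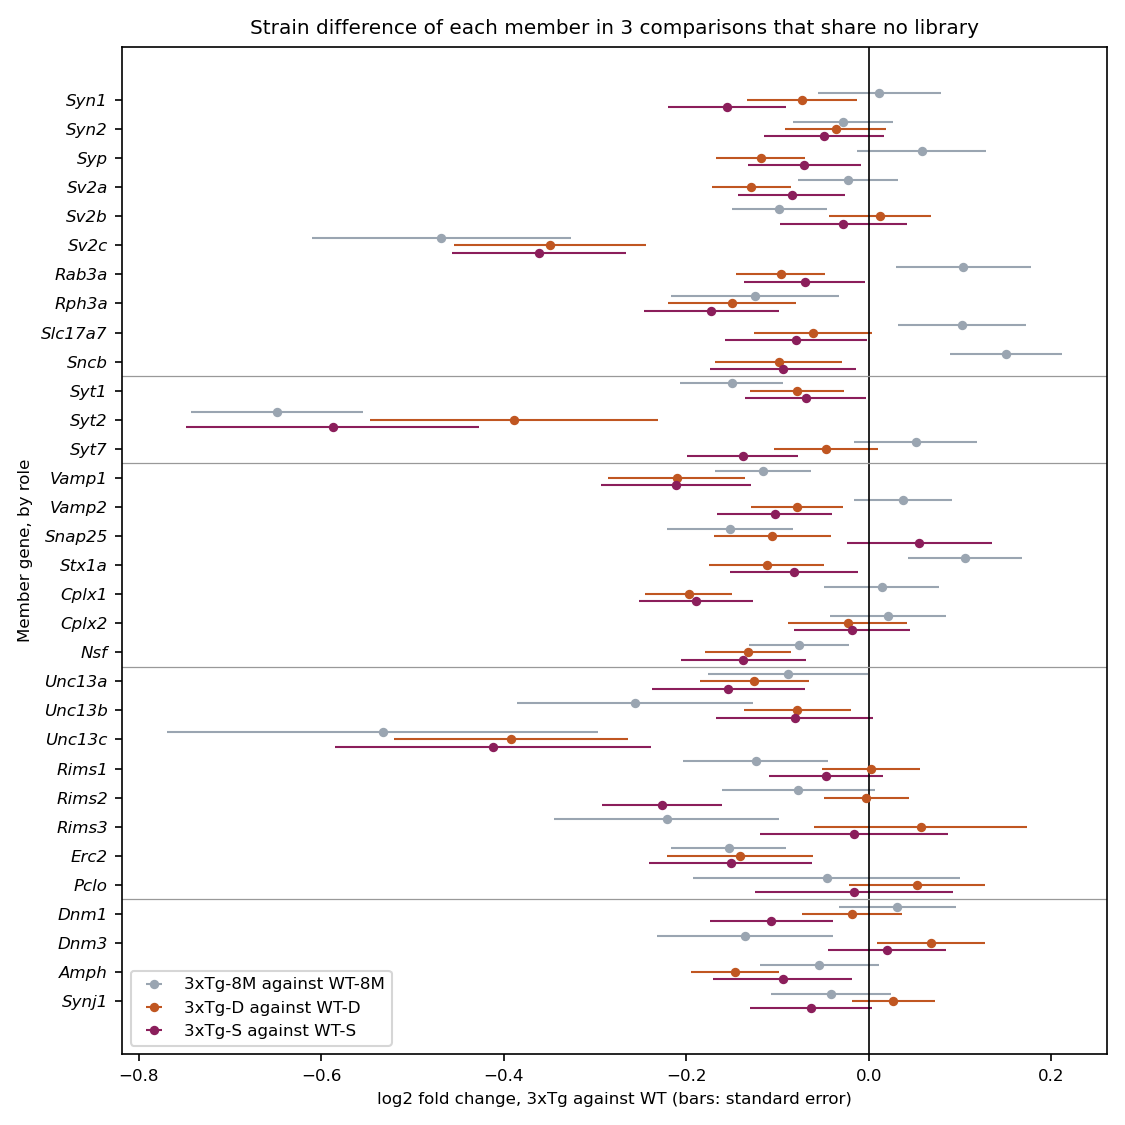
Log2 fold change of 3xTg against WT for each member, with its standard error, in untreated mice of 8 months and in vehicle and inhibitor mice of 10 months, ordered by role. The points of Syt2, Sv2c and Unc13c lie farthest to the left in all 3 comparisons, between -0.35 and -0.65, and those of most other genes lie within a narrow band around or just below 0.

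Because the strain comparisons at 8 months, under vehicle and under inhibitor share no library, their signs can be counted together. Of the 32 members, 14 had a negative estimate in all 3 (43.8%, against 20% of the 15194 genes tested in each), and 0 had a positive estimate in all 3 (against 20.3%). The 14 were Sv2a, Sv2c, Syn2, Rph3a, Syt1, Syt2, Vamp1, Nsf, Unc13a, Unc13b, Unc13c, Rims2, Erc2 and Amph. At an unadjusted p under 0.05 in all 3 were 4 members, Syt2, Sv2c, Unc13c and Vamp1 (12.5%, against 1.4% of all genes). This count rested on single libraries: with each of the 23 left out in turn it was 2 to 4, and Sv2c was kept 23 times, Syt2 20, Unc13c 16 and Vamp1 13. Sv2c and Syt2 were left without WT-8M replicate 1, 3xTg-8M replicate 1 or 2 or WT-S replicate 2, and Sv2c and Unc13c without WT-D replicate 3 or 3xTg-D replicate 1. Without WT-S replicate 2 the Unc13c difference under the inhibitor was -0.19, against -0.41 with it. Each of the 4 has a more abundant paralog in the module, Syt1, Sv2a, Unc13a and Vamp2. Whether the strain difference itself differs between the ages was not tested.

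Taking strain as a term beside treatment over the 15 libraries of 10 months, a fit chosen after seeing the data, gave 6 called members, all lower in 3xTg, where 3.36% of all genes were called lower and 6.53% were called in either direction. Cplx1 fell by 12.6% (log2 fold change -0.19 (SE 0.036), edgeR adjusted p = 0.00229) and Sv2c by 21.8% (-0.35 (SE 0.074), 0.00601). Both remained called without any 1 of the 15 libraries, and Cplx1 was the only member whose 7 WT and 8 3xTg values did not overlap (0.922% of all genes were lower in this way). In the inhibitor mice Cplx1 stood at 427, 444 and 495 CPM in WT-S and at 390.3, 409.8, 391 and 407 CPM in 3xTg-S.

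The other 4 were Syt2 (-0.48 (SE 0.12), edgeR adjusted p = 0.0246), the synaptobrevin Vamp1 (-0.21 (SE 0.057), 0.0307), Nsf (-0.13 (SE 0.038), 0.0406) and Unc13c (-0.40 (SE 0.12), 0.0417). Their calls were close to the threshold and rested on the number of libraries. The Syt2 call ended without WT-D 3, 3xTg-D 1, 3xTg-D 4, WT-S 2, WT-S 3 or 3xTg-S 1 (edgeR adjusted p = 0.0511 to 0.068), and that of Vamp1 without WT-D 3, WT-D 4, 3xTg-D 1, WT-S 2, WT-S 3 or 3xTg-S 1 (0.0693 to 0.0839). That of Unc13c ended without WT-D 1, WT-D 2, WT-D 4, 3xTg-D 1, 3xTg-D 4, WT-S 2, 3xTg-S 1, 3xTg-S 3 or 3xTg-S 4 (0.066 to 0.113), and that of Nsf without WT-D 1, WT-D 2, WT-D 3, WT-D 4, 3xTg-D 1, 3xTg-D 2, 3xTg-D 3, WT-S 1, WT-S 3, 3xTg-S 1 or 3xTg-S 4 (0.0552 to 0.101). Without 3xTg-S replicate 2 the calls numbered 8, with Syp and Sv2a added.

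Vamp1 stood at 115, 115, 144 and 135 CPM in WT-D, 102, 113, 113 and 112 in 3xTg-D, 113, 142 and 143 in WT-S and 109.6, 116, 114 and 119.7 in 3xTg-S. The 4 high values, WT-D replicates 3 and 4 and WT-S replicates 2 and 3, were all WT, and the other 3 WT mice lay among the 3xTg mice. In the runs of animal numbers in the sample titles, these 4 came later than the other 3 WT mice. The fit over both treatments held no term for runs, and their part in Vamp1 was not tested. Unc13c in the inhibitor mice stood at 28.5, 44.1 and 30.4 CPM in WT-S and at 27.7, 32.7, 20.0 and 22.8 CPM in 3xTg-S, which overlapped. In the vehicle mice Syt2 stood at 33.2, 33.5, 38.3 and 32.3 CPM in WT-D and at 19.7, 29.7, 35.0 and 20.4 CPM in 3xTg-D, so that 3xTg-D replicate 3 lay inside the WT-D range, replicate 2 just below it and replicates 1 and 4 well below it. 3xTg-D replicate 3 also had the highest sum of thalamus markers of all 23 libraries (133 CPM, against 104 to 108 CPM in the other 3 3xTg-D mice) and the lowest of its group for oligodendrocyte markers (3703 against 4954 to 5894 CPM) and microglia markers (328 against 424 to 519.8 CPM). Their part in its Syt2 level was not tested, and without it the Syt2 difference under vehicle was -0.55 (edgeR adjusted p = 0.0812), against -0.39 (0.317) with it.

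**Figure D3:**
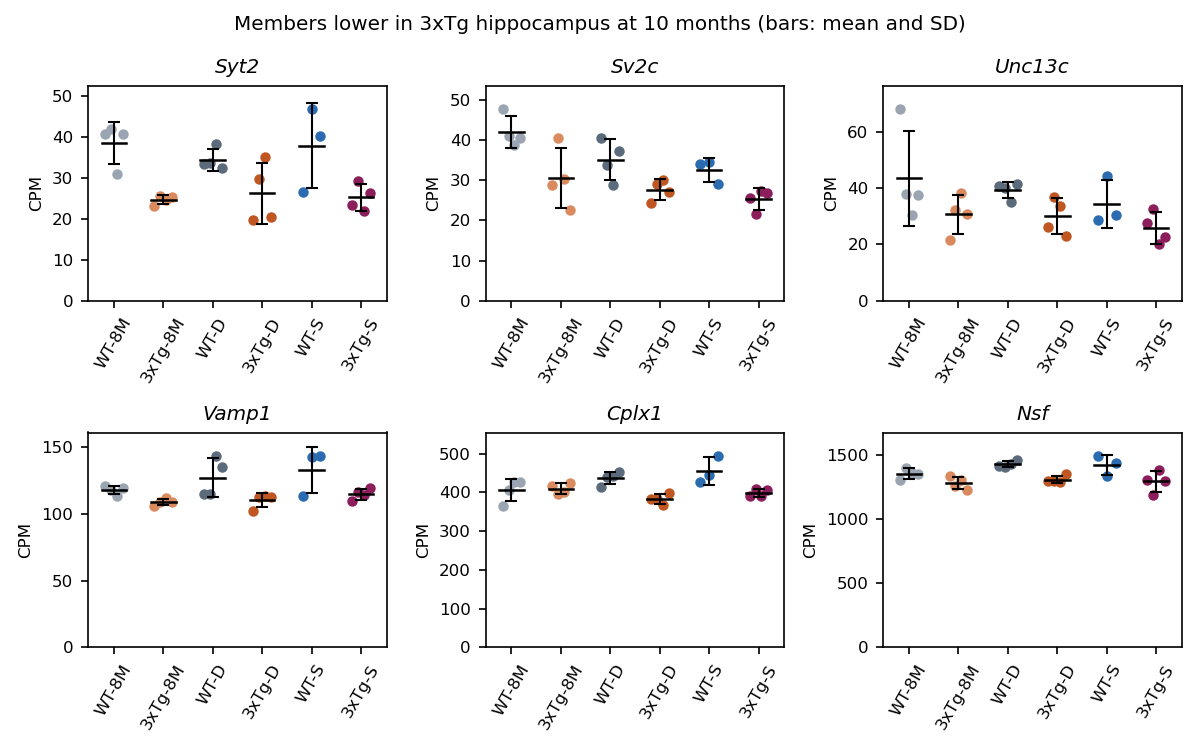
CPM of the 6 members called lower in 3xTg over both treatments at 10 months, by group, with 1 point per mouse and bars for the mean and SD (n = 4, and n = 3 in WT-S), each axis starting at 0. Cplx1 separates the strains at 10 months but not at 8 months, where its log2 fold change was 0.014, whereas Syt2, Sv2c and Unc13c have lower 3xTg means in every pair, that of Unc13c at 8 months through the high point of WT-8M replicate 1.

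Several of these genes have a more abundant relative in the module, and the share of a pair's reads per kilobase taken by the less abundant one sets both on the same scale. Syt2 took 2.15% ± 0.21 of the Syt1 and Syt2 level in WT-8M (SD, n = 4) and 1.55% ± 0.107 in 3xTg-8M. Sv2c took 3.34% ± 0.471 of the Sv2a and Sv2c level in WT-D and 2.88% ± 0.316 in 3xTg-D. These shares were lower in 3xTg than in WT for Syt2, Sv2c, Unc13c with Unc13a and Vamp1 with Vamp2 in all 3 pairs of groups by their means. These genes were picked as lower in the same libraries, so the order of their shares adds no separate evidence. Cplx1 with Cplx2 was also lower in all 3 (37.0% and 36.9%, 38.9% and 36.1%, 39.9% and 37.1%). Dnm3 with Dnm1 was higher in 3xTg-D (3.32%) than in WT-D (3.14%), and Rims2 with Rims1 higher in 3xTg-8M (26.5%) than in WT-8M (25.8%). The Unc13c share was 26.8% in WT-8M replicate 1, against 13.3% to 16.8% in the other 3 WT-8M mice and 9.77% to 17.1% in 3xTg-8M. Syn2 with Syn1, both synapsins that tether vesicles, showed no such order, at 42.2% ± 1.17 in WT-D and 42.8% ± 0.859 in 3xTg-D.

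The 250 bases upstream of a RefSeq start (GRCm38.p6) are shown for Syt2, Sv2c, Unc13c and Cplx1, 4 of the 6 members called lower over both treatments. RefSeq lists 2 starts for Syt2, of which 1 is shown, and 1 for each of the others. Sequences run 5′ to 3′ on the gene's strand in lower case, with capitals for the GC box GGGCGG and the CCAAT box, on either strand (CCGCCC and ATTGG are their reverse complements).
Syt2, chr1:134646362-134646611 (+ strand): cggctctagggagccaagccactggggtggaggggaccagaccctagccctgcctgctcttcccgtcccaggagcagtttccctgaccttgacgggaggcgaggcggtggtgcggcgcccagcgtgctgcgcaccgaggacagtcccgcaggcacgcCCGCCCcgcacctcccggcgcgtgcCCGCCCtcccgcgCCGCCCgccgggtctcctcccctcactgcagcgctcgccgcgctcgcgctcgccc
Sv2c, chr13:96132578-96132827 (- strand): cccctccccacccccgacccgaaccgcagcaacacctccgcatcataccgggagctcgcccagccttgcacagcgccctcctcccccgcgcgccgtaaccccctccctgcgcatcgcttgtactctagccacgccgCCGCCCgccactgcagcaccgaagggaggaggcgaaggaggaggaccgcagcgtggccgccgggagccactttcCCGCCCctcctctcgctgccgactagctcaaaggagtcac
Unc13c, chr9:73969038-73969287 (- strand): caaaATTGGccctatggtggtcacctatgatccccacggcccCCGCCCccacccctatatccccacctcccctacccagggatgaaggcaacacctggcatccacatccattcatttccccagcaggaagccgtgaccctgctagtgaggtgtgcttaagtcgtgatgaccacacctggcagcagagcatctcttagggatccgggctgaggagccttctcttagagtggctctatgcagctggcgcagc
Cplx1, chr5:108550028-108550277 (- strand): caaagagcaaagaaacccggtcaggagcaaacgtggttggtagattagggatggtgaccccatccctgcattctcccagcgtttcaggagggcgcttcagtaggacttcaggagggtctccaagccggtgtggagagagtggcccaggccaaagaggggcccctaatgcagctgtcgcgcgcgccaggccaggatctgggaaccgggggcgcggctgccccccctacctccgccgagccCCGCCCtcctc
Syt2, with 3 GC boxes in a window of 76.0% GC, and Sv2c, with 2 in 70.8% GC, were the richest in GC of the 4, and Unc13c, at 58.8% GC, held 1 GC box and 1 CCAAT box. Syt2 also held a CCAAT box among its 300-base windows, outside the stretch shown. Of the 32 members, 28 had a window in the RefSeq table, 38 windows of 300 bases in all, reaching from 250 bases before the start to 50 after it. With both strands searched, a GC box was in 63.2% of them, against 35.7% of 32851 windows of the same length, a CCAAT box in 31.6% against 37.4%, the TATA box TATAAA in 5.26% against 13.6% and the CRE core TGACG in 21.1% against 20.8%. Of the called members whose sequence is not shown, Vamp1 held a GC box and a CCAAT box among its windows, and Nsf held none of these motifs. Member windows were also richer in GC, with a median of 62.0% against 52.7%. These are descriptions of letters in a window, and the data do not measure binding there.

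Beyond the module, 74 other presynaptic genes were listed by the same roles, of which 73 were in the table (Vamp7 is not analysed here) and 72 passed the filter. None was called in any pairwise comparison. The 6 of smallest unadjusted p were the phosphatase Synj2 (-0.24 in 3xTg-D against WT-D, edgeR adjusted p = 0.0652), the vesicle GTPase Rab27b (-0.33 at 8 months, 0.0633), the ELKS gene Erc1 (0.23 in 3xTg-D against WT-D, 0.0945), the calcium channel subunit Cacna2d1 (-0.25 in 3xTg-S against WT-D, 0.0785), the synapsin Syn3 (-0.47 in 3xTg-S against WT-S, 0.152) and Vamp3 (0.29 in the same comparison, 0.156). Over both treatments at 10 months Synj2 and Syn3 were among those called lower in 3xTg (log2 fold change -0.20, edgeR adjusted p = 0.0135, and -0.35, 0.0143), and none was called higher. Of the 72, 23 were lower in all 3 strain comparisons (31.9%) and 10 were higher in all 3 (13.9%). Over both treatments 55 of 72 were below 0, with a median of -0.055, beside 29 of 32 and -0.093 for the members and 50.2% and -0.000607 for all genes.

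Markers of other neurons and of glia moved with strain as well, and their part in the members' differences was not tested. Over both treatments at 10 months, 3 of 5 dentate granule neuron markers were called lower in 3xTg and 0 higher, with a summed level of 386 to 489 CPM in WT-D and 334 to 409 CPM in 3xTg-D. At 8 months it was 378 to 424 CPM in WT-8M and 255 to 369 CPM in 3xTg-8M. Of 8 microglia markers, 4 were called higher and 0 lower (337 to 382 CPM in WT-D, 328 to 519.8 CPM in 3xTg-D), of 8 oligodendrocyte markers 1 was called higher, and of 10 pan-neuronal markers 1 was called lower (4338 to 4667 CPM in WT-D, 3986 to 4343 CPM in 3xTg-D). Of 6 inhibitory neuron markers 1 was called higher over both treatments, and the sum was 771 to 860.1 CPM in WT-D and 751 to 887 CPM in 3xTg-D. In 3xTg-D against WT-D alone, 1 of the 6 was called lower and 0 higher. Pvalb stood at 31.47 to 36.9 CPM in WT-D and at 26.21 to 26.85 CPM in 3xTg-D. Vip went the other way, with 14.63 to 22.77 and 23.6 to 38.9 CPM. Pvalb overlapped between WT-8M (26.44 to 32.67 CPM) and 3xTg-8M (27.7 to 38.35 CPM). It also overlapped between WT-S (26.88 to 36.46 CPM) and 3xTg-S (26.96 to 39.49 CPM).

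Since Syt2, Vamp1, Sv2c and Unc13c are also expressed outside the hippocampus, markers of neighbouring regions were read beside them. None of 8 thalamus markers was called, with sums of 77.9 to 104 and 97.4 to 121 CPM in WT-8M and 3xTg-8M and of 93.5 to 103 and 104 to 133 CPM in WT-D and 3xTg-D, and 7 of the 8 estimates were above 0 over both treatments. Of 5 striatum markers 1 was called lower over both treatments and 1 at 8 months, with sums of 24.8 to 42.3 CPM in WT-8M, 17.0 to 27.4 CPM in 3xTg-8M, 22.4 to 27.2 CPM in WT-D and 18.2 to 25.7 CPM in 3xTg-D. The striatal receptor transcripts Drd2 and Adora2a were near 0, at 3.70 and 1.58 CPM at most in any library. Under the inhibitor the thalamic sums were 93.1 to 109 CPM in WT-S and 93.7 to 108 CPM in 3xTg-S, and the striatal sums 21.9 to 29.0 and 14.6 to 25.1 CPM. The mean thalamic sum was thus higher in 3xTg at 8 months and under vehicle and lower under the inhibitor (101 against 98.6 CPM). The mean striatal sum was lower in 3xTg in all 3 pairs, with WT-8M replicate 1 at 42.3 CPM and the other 3 WT-8M mice at 24.8 to 26.5 CPM. Of 8 astrocyte markers none was called over both treatments, of 4 CA1 markers 1 was called lower and of 7 CA3 and CA2 markers 1 was called higher.

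Infusion of the SCD inhibitor into 3xTg mice called no member (3xTg-S against 3xTg-D, edgeR, 0% of 15530 genes), nor did DESeq2 call any. The unadjusted criterion was met by 2 members, Rims2 and Dnm3, both lower, where 2.52% of all genes met it and 1.36% met it and were lower. Rims2, a RIM scaffold that tethers calcium channels near vesicles, stood at 103, 103, 104 and 98.6 CPM in 3xTg-D and at 87.1, 84.3, 85.0 and 95.6 CPM in 3xTg-S. The groups did not overlap, with a log2 fold change of -0.21 (SE 0.051) and an edgeR adjusted p = 0.378. Dnm3, a neuronal dynamin, stood at 157, 171, 162 and 157 CPM in 3xTg-D and at 143, 149.8, 136 and 145 CPM in 3xTg-S, also without overlap (-0.17 (SE 0.05), edgeR adjusted p = 0.378). Without 3xTg-S replicate 2 they were -0.20 and -0.19, and with the length and GC trend removed -0.17 and -0.067.

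Synj1, which uncoats vesicles by removing phosphate from a membrane lipid, stood at 631, 656, 641 and 639 CPM in 3xTg-D and at 585, 519, 606 and 611 CPM in 3xTg-S (-0.14 (SE 0.057), edgeR adjusted p = 0.397). Rims1 stood at 193, 199.9, 193 and 219 CPM in 3xTg-D and at 181, 167, 196 and 189 CPM in 3xTg-S, with overlap (-0.14 (SE 0.059), 0.436). Groups did not overlap for 3 members, all lower (Rims2, Dnm3 and Synj1), against 3.3% of all genes. With the length and GC trend removed Synj1 was -0.056 and Rims1 -0.057. All 8 active zone genes had a negative estimate (median -0.11), while 5 of the 7 SNAREs and cofactors had a positive one (median 0.048), and 21 of 32 members were below 0, against 50.5% of all genes. Role and length were not separated here: the longest transcripts had 4800 to 20084 bases for active zone genes and 2167 to 5709 for SNAREs and cofactors. With the length and GC trend removed, the medians were -0.013 for the shorter members and -0.010 for the longer ones, and 20 members were below 0. Beside this, all 8 oligodendrocyte markers had a positive estimate, with sums of 3703 to 5894 CPM in 3xTg-D and 5856 to 6631 CPM in 3xTg-S, and all 8 thalamus markers a negative one (104 to 133 and 93.7 to 108 CPM), the lowest oligodendrocyte and the highest thalamus sum of 3xTg-D both being those of replicate 3, with none called, and their part in the members' values was not tested.

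Of the members lower in 3xTg, none was called as moved by the inhibitor in 3xTg. With 0% of 15530 genes called there, this count could not show whether they moved. In 3xTg-S relative to 3xTg-D, Cplx1 differed by 0.061 (SE 0.046), Vamp1 by 0.06 (SE 0.05), Nsf by -0.016 (SE 0.057), Syt2 by -0.063 (SE 0.17), Sv2c by -0.13 (SE 0.089) and Unc13c by -0.22 (SE 0.16). Only Cplx1 and Vamp1 of these 6 had an estimate above 0.

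In WT mice no member was called either (WT-S against WT-D, 0% of 15724 genes by edgeR, 0 by DESeq2), and 0 members had an unadjusted p under 0.01 or under 0.05, beside 0.375% and 3.42% of all genes. Estimates below 0 numbered 18, against 49.4%, and no member separated the groups, against 4.88%. The 4 of smallest p were Dnm3 (165, 157, 156 and 137 CPM in WT-D, 147, 148 and 130.3 CPM in WT-S, log2 fold change -0.12 (SE 0.072)), Rims1 (-0.082 (SE 0.05)), Sncb (0.12 (SE 0.079)) and Unc13c (-0.19 (SE 0.14)). Rims1 stood at 211, 192, 203 and 196 CPM in WT-D and at 191, 192 and 185 CPM in WT-S. Sncb stood at 206, 214, 189 and 221 CPM in WT-D and at 198, 239.7 and 239.5 CPM in WT-S. All of these groups overlapped.

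The inhibitor estimates followed transcript length in both strains, with a median above 0 for the shorter members and below 0 for the longer ones. Below 0 were 7 of the 16 shorter and 14 of the 16 longer members in 3xTg, and 5 and 13 in WT. In 3xTg the 16 members with the shorter transcripts had a median log2 fold change of 0.019 and the 16 with the longer ones -0.085, and in WT these were 0.044 and -0.045. Spearman's rho with length over the 32 members was -0.813 in 3xTg and -0.678 in WT, against -0.446 and -0.267 over all genes, so that the order was not limited to these genes. Over all genes, the slope of log2 level on transcript length was above 0 in every vehicle library and below 0 in every inhibitor library. It was 0.00852 to 0.0309 in WT-D, 0.0206 to 0.0519 in 3xTg-D, -0.0461 to -0.00127 in WT-S and -0.114 to -0.00131 in 3xTg-S. The source of this difference was not tested. The points of each rho share the same libraries, and length goes with GC content. With a trend on length and GC removed over all genes, rho over the members was -0.104 in 3xTg and -0.36 in WT. Without 3xTg-S replicate 2 it was -0.729 in 3xTg, and the module's median went from -0.035 to 0.0073.

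**Figure D4:**
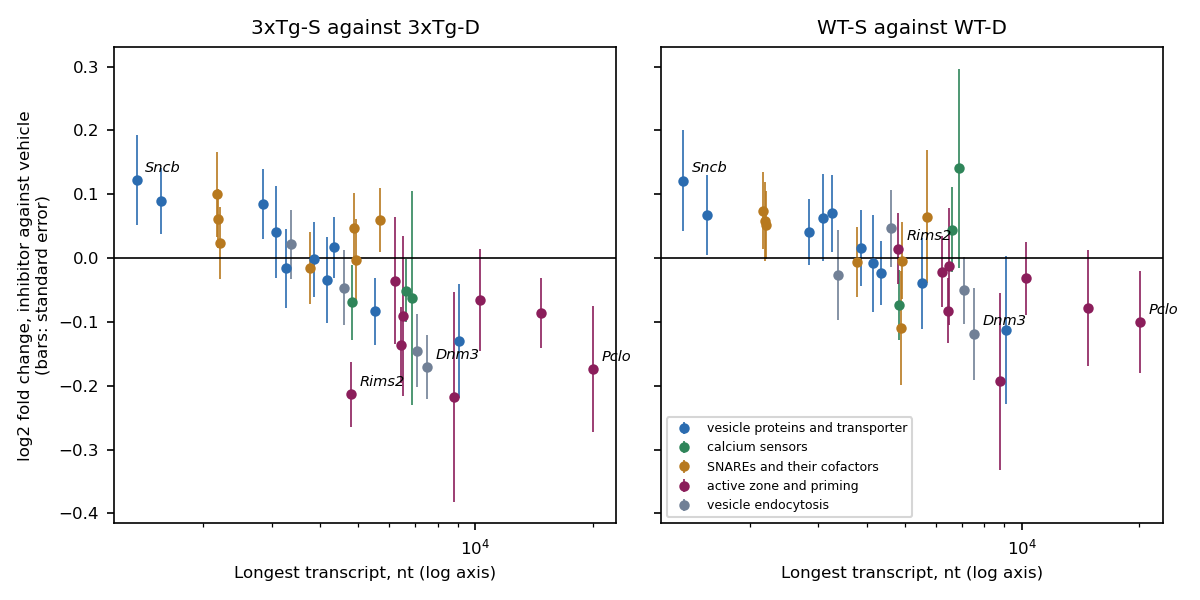
Log2 fold change of inhibitor against vehicle for each member, with its standard error, against the length of its longest transcript on a log axis, in 3xTg mice at the left and WT mice at the right, coloured by role. The points run from above 0 for the shortest gene, Sncb (0.12 in 3xTg and 0.12 in WT), to below 0 for the longest, Pclo (-0.17 and -0.10). Rims2 lies at -0.21 in 3xTg and at 0.015 in WT.

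Whether the inhibitor acted differently in the strains was tested as the interaction of strain and treatment over the 15 libraries. No member was called (0% of 16262 genes by edgeR), and 1 member, Rims2, met the unadjusted criterion (0.351% of all genes), while 22 estimates were below 0 (49.4% of all genes). The 32 interaction estimates followed transcript length (rho -0.457), and with the length and GC trend removed 15 were below 0. With a library left out the number below 0 ran from 16 (without 3xTg-S replicate 2, for example) to 26 (without WT-D replicate 4). The Rims2 interaction was -0.23 (SE 0.075), with an edgeR adjusted p = 1.00. Rims2 was 101, 97.1, 102 and 108 CPM in WT-D and 98.4, 106 and 104 CPM in WT-S, so that the 4 3xTg-S mice were the lowest of the 15. Taken over both strains, a fit chosen after seeing the data, the inhibitor called no member (0% by edgeR), and the smallest p was that of Dnm3 (-0.15 (SE 0.042), edgeR adjusted p = 0.241), the 1 member that met the unadjusted criterion, which 4% of all genes met. It was -0.069 with the length and GC trend removed, and 21 of 32 estimates were below 0 (49.9% of all genes). Dnm3 is among the genes whose exons overlap a transcript on the other strand.

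The inhibitor-treated 3xTg mice were also set against vehicle WT mice, a comparison that shares its controls with 3xTg-D against WT-D and its treated mice with 3xTg-S against 3xTg-D. Called were 3 members, all lower in 3xTg-S, where 2.29% of all genes were called and 1.1% were called lower: Unc13c (-0.60 (SE 0.12), edgeR adjusted p = 0.0248), Syt2 (-0.45 (SE 0.094), 0.028) and Sv2c (-0.47 (SE 0.11), 0.0396). For each of the 3 every 3xTg-S mouse was below every WT-D mouse, and 9 members in all did not overlap and were lower, against 4.69% of all genes. Rims2 also met the unadjusted criterion (-0.21 (SE 0.057), edgeR adjusted p = 0.0794), so that 4 members did, all lower, where 6.59% of all genes met it and 3.01% met it and were lower. By DESeq2's likelihood ratio test 6 members met it (6.83% of all genes). Below 0 were 31 of 32 estimates, against 48.8%. Which genes were called depended on the fit: with the length and GC trend removed they were Sv2c and Cplx1, with all libraries of 10 months in the fit Sv2c and Rims2, and by DESeq2 all 3 and Rims2. With a block for runs of animal numbers it was Syt2 alone (-0.49, edgeR adjusted p = 0.0379), while Sv2c was -0.42 (0.0564) and Unc13c -0.55 (0.194). In that fit WT-D 1 and 3xTg-S 4 were each alone in their run, so they did not inform the difference between the groups. Unc13c was lost without WT-D 1, WT-D 4, 3xTg-S 1 or 3xTg-S 4 (edgeR adjusted p = 0.0528 to 0.075), Syt2 without WT-D 3, 3xTg-S 1, 3xTg-S 3 or 3xTg-S 4 (0.0523 to 0.108) and Sv2c without WT-D 1, WT-D 2, WT-D 4, 3xTg-S 1, 3xTg-S 2 or 3xTg-S 4 (0.0589 to 0.109). The same 3 genes in the vehicle 3xTg mice had estimates of -0.39, -0.39 and -0.35.

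**Figure D5:**
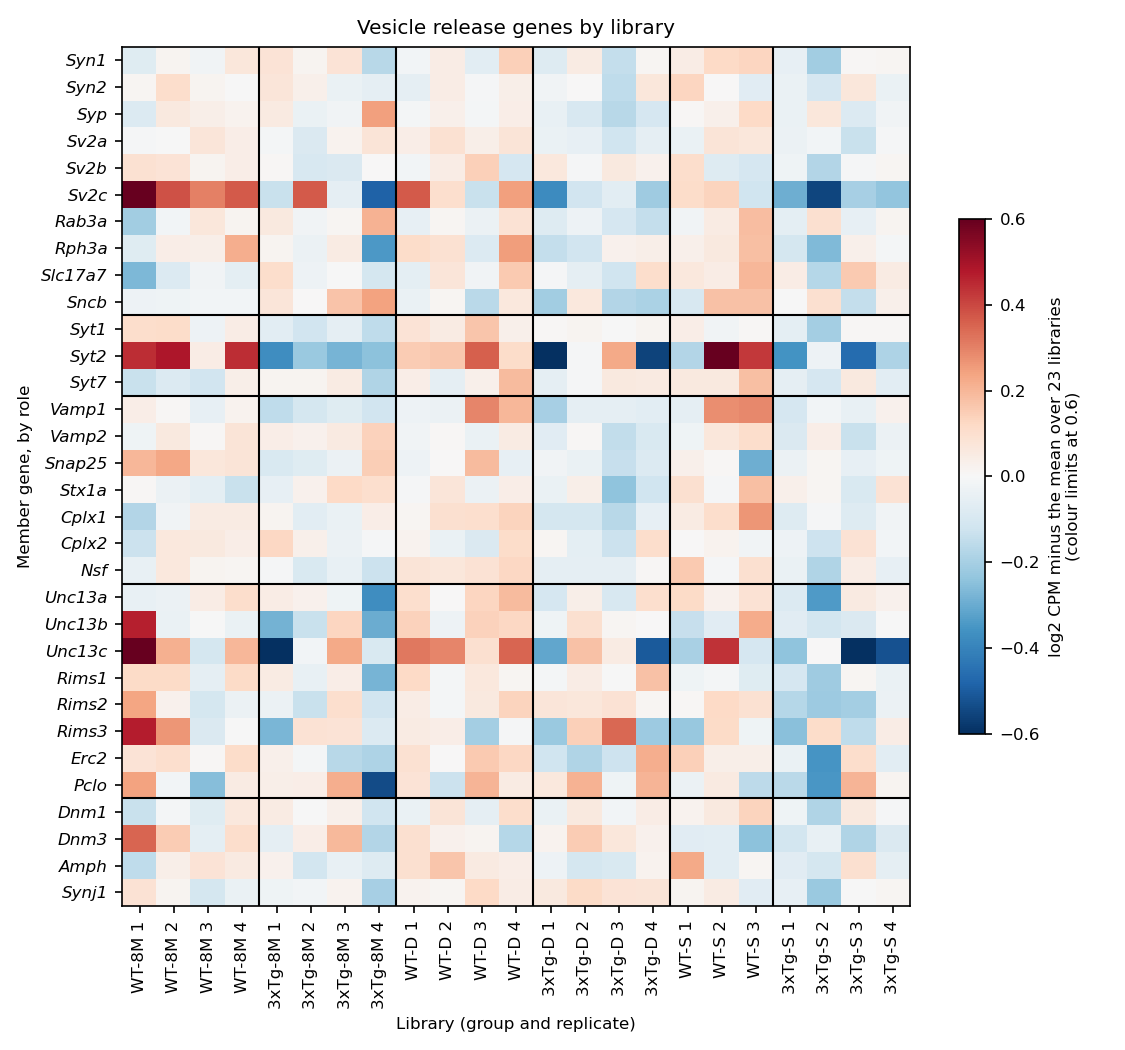
Log2 CPM of each member in each library minus its mean over the 23 libraries, with members in rows by role and libraries in columns by group, and the colour scale limited at 0.6 in either direction. The rows of Sv2c, Syt2 and Unc13c carry the strong colours, and in the columns 3xTg-8M 4 and 3xTg-S 2 the long active zone genes Pclo, Unc13a and Erc2 are blue.

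From library to library within a group, the members moved together only in part. After removal of the group means, the correlation of a member with the module's mean over the 15 libraries of 10 months was 0.786 for Syn1, 0.692 for Dnm1, 0.638 for Unc13a and 0.612 for Rims2, and at the other end -0.316 for Amph, -0.283 for Snap25 and -0.238 for Sv2b. The median over members was 0.342, where a member is part of the mean, and the median over 11664 genes was -0.00642. Outside the presynaptic lists, the 5 genes most like the module were Smarcc2 (r = 0.886), St3gal2 (0.882), Rgl1 (0.881), Abcb8 (0.866) and Rbms2 (0.866). These values describe 15 libraries that share depth and length trends.

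Reads from a gene and a transcript on its other strand cannot be separated where counting ignores strand, and how strand was treated here is unknown. This touches Syn1, Syn2, Syp, Sv2b, Rab3a, Syt7, Unc13a, Erc2, Pclo, Dnm3 and Synj1, whose exons overlap those of another gene in the annotation, and none of the 6 members called lower over both treatments. Of these, Sv2c lies at chr13:95954594-96132577 (- strand), Syt2 at chr1:134646677-134762593 (+ strand), Unc13c at chr9:73479422-73968966 (- strand), Cplx1 at chr5:108518554-108550024 (- strand), Vamp1 at chr6:125215551-125245964 (+ strand) and Nsf at chr11:103821782-103954056 (- strand) of GRCm38.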

How the data were processed

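Hippocampal RNA of 23 mice was analysed from the deposited table of raw counts per gene, which are whole numbers and which the authors made by trimming reads with Trimmomatic 0.35 and aligning them with STAR 2.5.1b to GRCm38. The strand setting and any collapsing of molecular identifiers are not given in the sources used here. The 4 lines that name no gene (24.7% to 30.9% of reads) were left out of library sizes. Groups were taken from the labels. Each comparison was fitted on its own libraries in edgeR 4.0.16 (R 4.3.3) with filterByExpr, TMM and quasi-likelihood F tests. A gene was called where its p, adjusted by Benjamini-Hochberg over all genes tested, was under 0.05. The study itself used 0.01 without adjustment, with a likelihood ratio test in DESeq2. Counts at that threshold here are of edgeR p values, unless DESeq2 is named. The standard error is the log2 fold change divided by the square root of the F value. The interaction used the 15 libraries of 10 months. Each library is 1 mouse.

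CPM were scaled by TMM, and exon and transcript lengths came from Gencode M21, which may differ from the authors' annotation. Scripts were tested on simulated data. Alternatives were DESeq2 1.42.0 (size factors and its likelihood ratio test), no filter, a trend on transcript length and GC removed (a spline with 5 degrees of freedom), all libraries of 10 months in one fit, a block for runs of animal numbers and leaving out each library in turn. Fits with strain and treatment as additive terms, and the count over the 3 strain comparisons with each library left out, were added after seeing the data. Members and lists were chosen with earlier results of these data known. Values in every library were given for members at an unadjusted p under 0.01 in a pairwise comparison, and for the 4 of smallest p where fewer passed. Vamp1 and Nsf were named after their values were seen. An engineered allele of the 3xTg mice and 1 other presynaptic gene are not reported here. Genes like the module were taken from those with a mean of at least 5 CPM.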

Additional observations from a re-analysis of the deposited data

Results flagged for a closer look

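Among the 55 values tested (11 members in the 5 groups of 4 mice), 3 had 1 mouse far from the other 3 of its group, and chance alone gives about 1 in 20. Sncb stood at 221.4 CPM in 3xTg-D replicate 2, against 183.2 to 187.5 CPM in the other 3. Syt2 stood at 30.8 CPM in WT-8M replicate 3, against 40.6 to 41.9 CPM, and Rims1 at 186.9 CPM in the same library, against 210.1 to 210.4 CPM. Without WT-8M replicate 3 the module's median at 8 months was -0.081, and 1 member was called.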

How the results depend on the processing

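Of 268 alternative values for counts of called members and medians, 247 stayed close to those reported, but this tally is lenient. In the inhibitor comparisons and the interaction 0% of all genes were called in the main fit, so that 0 called members was nearly fixed in advance. A median was close if it moved by less than the mean SD of the module's level within groups. A change of sign could pass: in WT-S against WT-D medians ran from -0.0096 to 0.0185 with a library left out. Without a filter on low counts, 3 members were called at 8 months, 4 in 3xTg-D against WT-D and 3 in 3xTg-S against WT-S. DESeq2's likelihood ratio test called 2, 2 and 1 in these, and removal of the length and GC trend gave 1 in the last. Leaving out a library gave 1 to 2 at 8 months, 0 to 1 in 3xTg-D against WT-D, 0 to 2 in 3xTg-S against WT-S and in 3xTg-S against WT-D, and 2 to 8 for strain over both treatments. The lowest of these came without 3xTg-S replicate 1 or 4 in 3xTg-S against WT-D, and without 3xTg-D replicate 1 or 3xTg-S replicate 1 over both treatments. The module's median in 3xTg-S against 3xTg-D ranged from -0.059 to 0.0073, its only change of sign coming without 3xTg-S replicate 2. Sncb at 8 months was -0.0035 with the length and GC trend removed. The cause of these shifts was not tested. The labels give the groups no shared replicate numbers, and the only block that could be fitted was one for runs of animal numbers, which no label calls a batch. It left 1 call in 3xTg-S against WT-D and gave 0 in the other pairwise comparisons at 10 months, as without it. A mouse alone in its run within a comparison did not inform that fit, so fewer mice stood behind most of these values. The fits over both treatments and the interaction were not run with this block. With at least 272 reads per member, mice and not reads limited the precision.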
